A study of Mus musculus with 8 samples.

Results

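Venous blood endothelial cells of a mouse melanoma were picked out of a single-cell data set by their levels of Ackr1, Selp and Vwf. MT-ret melanoma, which comes from mice carrying the RET oncogene under the metallothionein promoter, had been implanted as tumor fragments on the flank of 10 C57BL/6N mice, whose age and further treatment the labels do not give. Flow cytometry gave a sort of blood endothelial cells (BEC) and a sort of lymphatic ones (LEC), and 4 droplet libraries were made from each. The values were counts of unique molecular identifiers (UMIs), each standing for 1 captured RNA molecule. The matrix did not separate the libraries or the mice, so each sort was 1 sample. No difference below has a replicate check or a test, and the intervals, all at the 95% level, cover counting error only. The sort is a pool of mice that carried tumors of 1 type, no untumored tissue is compared, and the shares are of sorted and captured cells, not of the tumor.

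A cell of the BEC sort entered the scoring if it held fewer than 20 UMIs of 4 pigment genes and fewer than 20 UMIs of the stromal genes Col3a1 and Rgs5. Of 3228 cells 3170 passed. Each was scored on 5 gene sets (venous: Ackr1, Selp, Vwf; arterial: Gja5, Sema3g, Stmn2; tip: Apln, Tnfrsf9, Kit; and sets around Npr3 and around Aplnr), and each score was expressed as a z-score, its distance in standard deviations from the mean of these cells. A cell was a member if its venous z-score was its highest and was over 1. That gave 285 venous members, 8.99% of the scored cells (8.02 to 10.0%) and 285 of the 7635 cells of both sorts. The other 2885 scored cells, called the other BEC here, comprised 268 arterial, 388 tip, 422 Npr3 and 466 Aplnr cells by the same rule and 1341 cells with no score over 1 (no program).

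Veins and venules are the part of the vessel tree where leukocytes usually leave the blood. Their endothelium stores von Willebrand factor (Vwf) and P-selectin (Selp) in Weibel-Palade bodies and brings P-selectin to the surface on activation. Ackr1 encodes the atypical chemokine receptor 1 (DARC), which binds many inflammatory chemokines without G protein signalling and is known as a marker of venular endothelium. Venous identity is maintained by the transcription factor COUP-TFII (Nr2f2), which restrains the Notch signalling that arterial cells use.

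The venous members held 5697129 UMIs in all, with a median of 18694 per cell (7004 to 54825) and 2770 genes. The other BEC had a median of 19484 UMIs and 2850 genes. Median mitochondrial shares were 3.67% and 3.35%. There were 34 barcodes present in both sorts, and 4 of them belonged to venous members.

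The 3 genes of the venous score describe the choice and are not a finding. Levels are given in CPM, a gene's part of the summed UMIs of a group scaled to 1000000. Ackr1 lies on the minus strand of chromosome 1 (173331886 to 173333750, GRCm38). It was at 1435 CPM in the members and 9.0 CPM in the other BEC. Selp was at 822 and 36.0 CPM, and Vwf at 392 and 49.5 CPM. A UMI of Ackr1 was found in 86.7% of members, of Selp in 93.0% and of Vwf in 88.1%. Together the 3 genes marked 201 of the 285 members (70.5%), while 76 members carried 2 of them and 8 carried 1. The members' z-scores ran from 1.0 to 5.75 with a median of 2.57, and the other BEC had a median of -0.561.

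**Figure D1:**
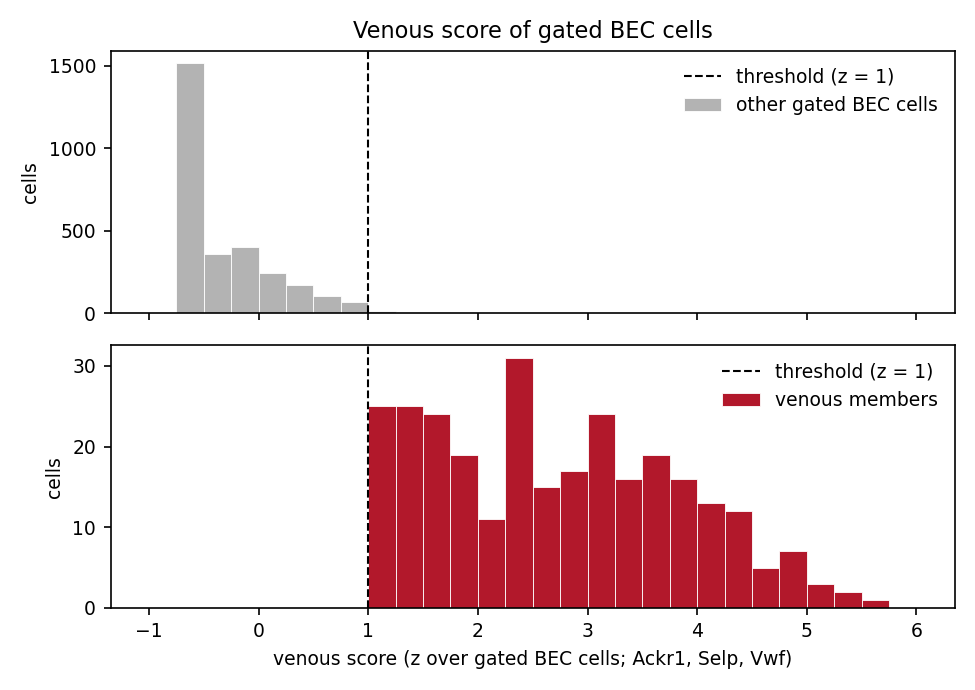
Number of scored BEC cells (y axes, linear) by venous z-score (x axis, bins of 0.25) for the other BEC (top) and the 285 venous members (bottom), with the threshold of 1 as a dashed line. Members spread from 1.0 to 5.75 without a gap at the threshold, and the few grey cells beyond it scored higher on another set.

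The lower edge of the score was gradual. Ackr1 was at 159 CPM in the 25 members with a z-score of 1.25 or less and at 80.3 CPM in the 29 cells just below the threshold, at 0.75 to 1. Lrg1, which was not scored, stood at 3037 and 3124 CPM in those same 25 and 29 cells, and Icam1 at 234 and 220 CPM. Cells on both sides of the threshold were close in Lrg1 and Icam1. A further 25 cells passed 1 on the venous score but scored higher on another set, 7 each on the arterial, tip and Npr3 sets and 4 on the Aplnr set. Of the members, 22 were also over 1 on the arterial score and 10 on the Aplnr score.

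Each scoring gene was also read in cells chosen without it. With Ackr1 left out of the score, 345 cells qualified, and Ackr1 was at 1113 CPM in them and 17.3 CPM in the rest, 64.2-fold higher (60.3 to 68.5). It was detected in 65.2% of those cells and in 12.6% of the rest. With Selp left out, Selp was at 734 CPM in 280 cells and 49.0 CPM elsewhere, 15-fold higher (14.3 to 15.7). With Vwf left out, Vwf was at 321 CPM in 283 cells and 54.8 CPM elsewhere, 5.86-fold higher (5.54 to 6.20). Each of the genes was higher in cells picked by the remaining pair, least so for Vwf. The genes of the score had been chosen with earlier results of these data known. These folds therefore describe that choice and are not independent evidence. When every cell was thinned to 6000 UMIs, Ackr1 was seen in 79.6% of members and in 3.65 to 5.93% of each other group of BEC. It was seen in 0.241% of the LEC sort, whose median depth before thinning was 11000 UMIs. Ackr1 is a gene of the rule, so its share in the members also describes how they were picked.

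Beyond the scoring genes, the members exceeded the other BEC by 2-fold or more in 172 of 3339 genes that reached 50 CPM (5.15%) and fell short of them by 2-fold or more in 155 (4.64%), on a log2 scale with 1 CPM added. The median log2 ratio of all 3339 genes was -0.04. Differences of at least 8-fold were found for 21 genes on the higher side and 6 on the lower side.

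The 20 genes with the largest ratios included receptors and an enzyme of small mediators. Htr2b, a receptor for serotonin, was at 72.7 CPM in members and 1.75 CPM in the other BEC, 41.5-fold higher (33.6 to 51.6). It was seen in 18.9% of members, so most venous cells had no UMI of it. Without the 33 members of the sub-cluster richest in Htr2b, described with the sub-clusters, its log2 ratio went from 4.74 to 3.49. Hdc, the enzyme that makes histamine from histidine, was at 111 and 4.99 CPM, 22.4-fold higher (19.5 to 25.6). Cysltr1, a receptor for cysteinyl leukotrienes, was at 53.9 and 5.58 CPM, 9.66-fold higher (8.26 to 11.3).

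The signal transducer gp130, Il6st, through which interleukin 6 and related cytokines act, was a broad feature of the members. It was at 464 CPM in them and 38.7 CPM in the other BEC, 12-fold higher (11.4 to 12.7), and it was detected in 83.5% of members against 28.2%. The protease inhibitor gene Spint2 was nearly as widespread, in 82.8% of members, at 472 and 36.1 CPM. Ctnnal1, a catenin-like gene, was found in 55.1% of members at 110 CPM and in 4.71% of the other BEC at 5.97 CPM.

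Genes of elastic fibres and of matrix turnover formed another part of the 20. Elastin (Eln) was at 318 and 22.1 CPM, 14.4-fold higher (13.4 to 15.4), and its log2 ratio went from 3.79 to 2.83 without those 33 members. Fibulin 5 (Fbln5), which helps to assemble elastic fibres, was at 721 and 86.9 CPM, 8.30-fold higher (7.97 to 8.64). The gelatinase gene Mmp2 was at 129 and 8.80 CPM, and its inhibitor Timp2 at 203 and 22.8 CPM.

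The remaining genes of the 20 were Fjx1, Cadm3, Sele, Tagln, Nqo1, Ctsh, Serping1, Mgst1, Isyna1 and Clca3a1, between 9.13-fold and 39.3-fold higher. Cadm3 is uncertain, because its annotated span on chromosome 1 overlaps that of Ackr1 by 493 bases on the same strand. Of the 69 members with a Cadm3 UMI, 68 also had Ackr1. Of the 50 other BEC with Cadm3, 11 had Ackr1.

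**Figure D2:**
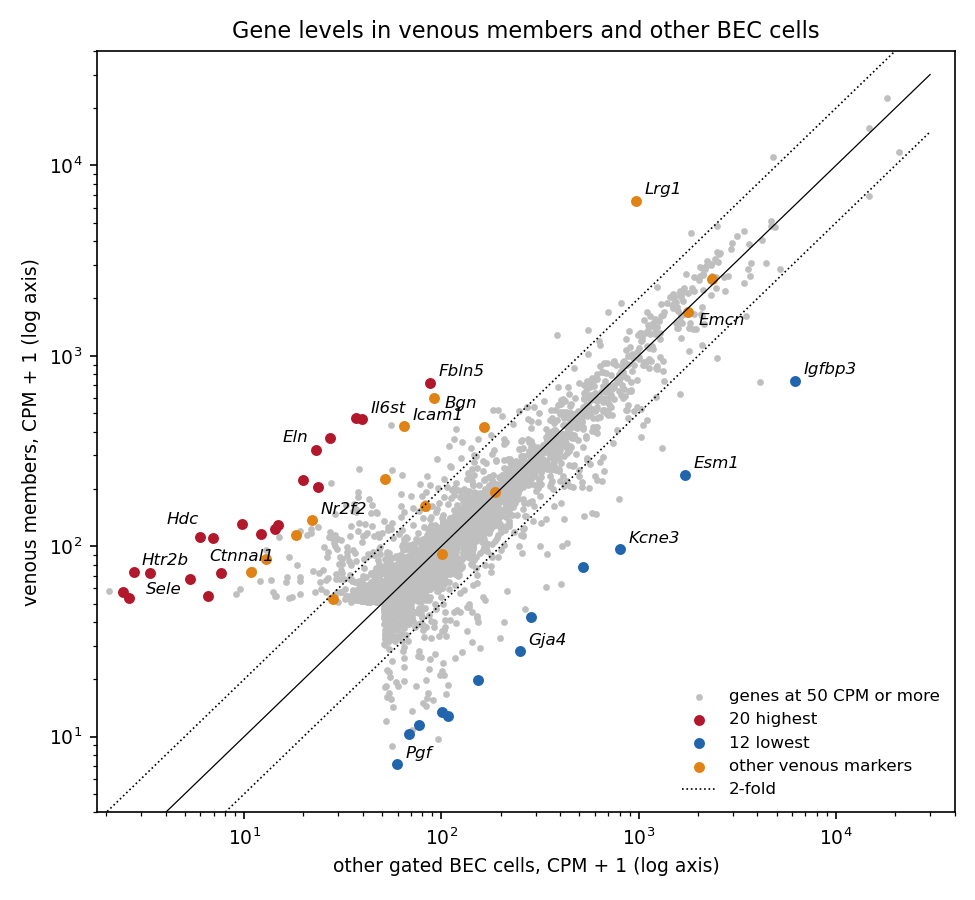
Level of each gene at 50 CPM or more in the other BEC (x axis, CPM + 1, log axis) and in the venous members (y axis, CPM + 1, log axis), leaving out the scoring genes and mitochondrial genes; dotted lines mark 2-fold. Lrg1, Icam1 and Il6st lie well above the upper line, Igfbp3 and Esm1 below the lower one, and Emcn near the diagonal.

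Known venous genes that the score did not use were mostly higher in the members. Of 20 such genes 19 reached 10 CPM, and 13 of these were at least 2-fold higher and 0 lower, with a median log2 ratio of 2.63. The same counts over all 7805 genes that reached 10 CPM were 5.33% higher and 4.29% lower, with a median of 0.00. These shares are also the background for the counts of each list below. The lists had been chosen with earlier results of these data known and are not independent evidence.

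Lrg1, a secreted glycoprotein that acts on TGF-beta signalling in vessels, was at 6532 CPM in the members and 969 CPM in the other BEC, 6.74-fold higher (6.66 to 6.83). Per 10000 UMIs of a cell, the members had a median of 61.9 UMIs of Lrg1 (10th to 90th percentile 15.3 to 126) and the other BEC a median of 4.88. Nr2f2 was at 136 and 21.1 CPM, 6.42-fold higher (5.87 to 7.02), with a UMI in 56.8% of members and 16.1% of the other BEC. The interleukin 1 receptor gene Il1r1 was 7.37-fold higher (6.5 to 8.36) and the proteoglycan gene Bgn 6.61-fold higher (6.33 to 6.89).

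In the list, 2 genes fell just under 2-fold. The venous ephrin receptor gene Ephb4 was at 52.1 and 27.2 CPM, 1.92-fold higher (1.69 to 2.17), and Nrp2 was 1.97-fold higher (1.83 to 2.11). Others hardly differed. Emcn, a sialomucin of veins and capillaries, was at 1697 and 1787 CPM. Cpe, Tmsb10 and Tshz2 were between 0.900 and 1.08 times the level of the other BEC.

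Adhesion molecules for leukocytes lay on both sides. E-selectin (Sele), on which leukocytes roll, was at 71.4 CPM in the members and 2.34 CPM in the other BEC, 30.5-fold higher (25.2 to 37.0). It was detected in 31.9% of members and 2.05% of the other BEC. Icam1, the ligand of leukocyte beta2 integrins, was at 425 and 63.7 CPM, 6.68-fold higher (6.35 to 7.02). Vcam1, which binds the VLA-4 integrin, was at 84.4 and 12 CPM, 7.06-fold higher (6.29 to 7.92).

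The junctional adhesion molecule gene Jam2 was 2.30-fold higher (2.18 to 2.43), whereas its relative Jam3 was 5.69-fold lower (4.56 to 7.19), at 14 and 79.9 CPM. Podxl was 2.21-fold lower (1.97 to 2.47). When Ackr1 was left out of the score both Jam2 and Podxl came within 2-fold, with log2 ratios of 0.97 and -0.81. Pecam1, Cdh5, Esam, Icam2 and Cd34 were each within 2-fold, with Pecam1 at 1048 and 982 CPM and Cd34 at 884 and 1235 CPM. In all, 4 of 17 measured adhesion genes were at least 2-fold higher and 2 lower, with a median log2 ratio of -0.10. Over all genes at 10 CPM or more, 5.33% were higher and 4.29% lower.

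Sele and Selp are neighbours on chromosome 1, with 57586 bases between the end of Sele and the start of Selp in the GRCm38 annotation. The 250 bases before the RNA start annotated by RefSeq are shown for Selp, Sele and Icam1, adhesion genes that were high in the same cells. The windows of Ackr1 and Lrg1 overlap the span that GENCODE gives these genes and are not shown. The sequences are on GRCm38.p6, 5′ to 3′ on the strand of the gene, and capitals mark matches to the motifs named after them.
Selp, chr1:164115014-164115263, plus strand: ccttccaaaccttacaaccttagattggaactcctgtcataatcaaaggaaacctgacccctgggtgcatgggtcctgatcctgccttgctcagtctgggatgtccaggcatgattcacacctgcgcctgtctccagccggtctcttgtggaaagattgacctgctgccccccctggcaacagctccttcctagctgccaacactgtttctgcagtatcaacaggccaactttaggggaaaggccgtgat
Sele, chr1:164047984-164048233, plus strand: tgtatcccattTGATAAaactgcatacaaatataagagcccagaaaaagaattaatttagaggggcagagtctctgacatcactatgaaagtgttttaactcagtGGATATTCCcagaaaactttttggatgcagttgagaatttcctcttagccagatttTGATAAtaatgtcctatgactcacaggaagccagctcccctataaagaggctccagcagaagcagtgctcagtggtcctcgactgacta
Icam1, chr9:21015690-21015939, plus strand: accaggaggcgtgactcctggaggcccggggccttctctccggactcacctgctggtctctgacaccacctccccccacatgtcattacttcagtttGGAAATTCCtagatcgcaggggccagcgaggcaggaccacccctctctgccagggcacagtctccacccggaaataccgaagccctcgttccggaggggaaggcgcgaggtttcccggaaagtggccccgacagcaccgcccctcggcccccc

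Windows were searched on both strands for an NF-kB-like motif (GGG, then any 3 bases, then TTCC), a GATA motif (AGATAA) and an ETS motif (CCGGAAGT). The NF-kB-like motif was in 4.65% of 32851 promoter windows, the GATA motif in 9.99% and the ETS motif in 2.88%. None of the 13 windows found among the 20 highest genes held any of these 3 motifs. Of 14 windows of the venous list, 1 held the NF-kB-like motif and 0 the GATA or ETS motif. That match was in Lrg1, as GGGCTCTTCC, 34 bases before the start, in a window that overlaps its GENCODE span. A shorter form, GGANNTTCC, present in 3.59% of windows, was added after the sequences had been seen. It matched in Sele as GGATATTCC, 145 bases before the start, and in Icam1 as GGAAATTCC, 153 bases before it. TGATAA, also added afterwards and present in 7.94% of windows, matched in Sele at 239 and 89 bases before the start. The window of Selp held no match to these motifs. A match describes letters in a window and no binding was measured.

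Genes for soluble signals were unevenly distributed. Of 11 measured chemokines and cytokines 7 were at least 2-fold higher in the members and 3 lower, with a median log2 ratio of 1.11. Il6 was at 253 CPM in the members and 37.2 CPM in the other BEC, 6.80-fold higher (6.37 to 7.26), and was detected in 49.1% of members. Cxcl1, which attracts neutrophils, was at 112 and 39.1 CPM, 2.86-fold higher (2.62 to 3.12). The growth factor gene for macrophages, Csf1, was at 27.4 and 6.07 CPM, and was seen in 16.5% of members and 5.51% of the other BEC.

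Csf3, the granulocyte growth factor, was at 56.9 and 1.06 CPM, but after thinning it was found in 4.56% of members. Ccl2, at 64.1 and 15.4 CPM, is uncertain, because 1 cell held 77.8% of its UMIs in the members, and its log2 ratio of 1.99 became -0.35 when cells were scored after thinning. Cxcl12, Cxcl9 and Ccl21a were lower, with Cxcl12 at 44.4 and 115 CPM, 2.58-fold lower (2.28 to 2.94). Near-identical copies of Ccl21a exist in the mouse genome, and its reads cannot be assigned with certainty. Without cells holding 5 or more UMIs of lymphatic genes, itself among them, its log2 ratio went from -3.29 to -0.08. Of the other chemokine receptors, the scavenger receptor gene Ackr3 was at 25.6 and 39.1 CPM and Cxcr4 at 5.79 and 19.1 CPM, whereas Ackr2, Ackr4, Ccrl2 and Cxcr2 were under 10 CPM in both groups.

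In the list of NF-kB and cytokine response genes 7 of 20 measured genes were at least 2-fold higher and 0 lower, with a median log2 ratio of 0.89. The 7 include the receptor genes Il1r1 and Il6st already given. The NF-kB inhibitor gene Nfkbia was at 1899 and 815 CPM, 2.33-fold higher (2.28 to 2.38). Socs3, a feedback inhibitor of gp130 signalling, was at 482 and 202 CPM, 2.38-fold higher (2.28 to 2.48). Nfkbiz was at 235 and 62.4 CPM, 3.77-fold higher (3.55 to 4.02). Immediate-early genes, which also respond to tissue dissociation, had a median log2 ratio of 0.50, with 2 of 18 at least 2-fold higher (Egr1 and Ier3, of which Egr1 came under 2-fold in 10 of 20 alternative settings) and Junb 1.86-fold higher (1.82 to 1.89). Their part in the levels of Il6, Socs3 and Nfkbia was not tested.

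Interferon-response genes differed less, with 1 of 16 at least 2-fold higher (Iigp1, 2.78-fold, 2.61 to 2.95) and a median log2 ratio of 0.34. Ifitm3 was at 4796 and 2502 CPM. Of 10 genes of MHC class I presentation 1 was at least 2-fold higher, H2-T23, and H2-K1 was 1.91-fold higher (1.86 to 1.96). The MHC class II genes were under 10 CPM in both groups, with H2-Ab1 at 3.51 and 4.27 CPM.

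Of 7 measured genes of high endothelial venules, the specialised venules of lymph nodes, 2 were at least 2-fold higher (Glycam1 and Sele) and 2 lower (Enpp2 and Ccl21a). Glycam1, a mucin ligand of L-selectin, was at 25.3 and 3.39 CPM, but it was detected in 5.61% of members and 1 cell held 25.7% of its UMIs there. No UMI of the sulfotransferase gene Chst4 or the fucosyltransferase gene Fut7 was found in the members, where 3 UMIs correspond to 0.527 CPM. Madcam1 was detected in 1.40% of members, with 50% of its UMIs in 1 cell.

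Of the other contents of Weibel-Palade bodies, the vasoconstrictor gene Edn1 was at 114 and 46.6 CPM, 2.45-fold higher (2.25 to 2.67), and Rab27a, which controls their release, was 3.47-fold higher (2.77 to 4.32). Angpt2, which antagonises Tie2, was 4.49-fold lower (4.22 to 4.79), at 176 and 789 CPM. Tek, which encodes Tie2 itself, was at 126 and 33.8 CPM, 3.74-fold higher (3.43 to 4.07). Tie1 was at 179 and 196 CPM. The receptor Tek and its ligand Angpt2 thus lay on opposite sides.

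Among genes of coagulation and fibrinolysis 0 of 14 measured genes were at least 2-fold higher and 3 lower. Over all genes at 10 CPM or more 5.33% were higher and 4.29% lower, so 0 of 14 higher is near that share. The thrombin receptor gene F2r was 5.39-fold lower, F2rl3 6.82-fold lower and the urokinase receptor gene Plaur 2.22-fold lower. Thrombomodulin (Thbd) was at 76.9 and 74.2 CPM. Prostanoid genes included Ptgs1, the constitutive cyclooxygenase, at 224 and 50.7 CPM and 4.42-fold higher (4.14 to 4.72), and the prostaglandin transporter gene Slco2a1, 2.57-fold higher (2.46 to 2.69). Ptgs2 had no UMI in the members.

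Among receptor genes for vascular mediators, Cysltr1 and the prostaglandin E receptor gene Ptger4 were higher, and Ednrb and Adora2a lower. Ednrb was at 89.5 and 343 CPM, 3.83-fold lower. Plvap, which forms the diaphragms of fenestrae and caveolae, was at 4753 and 4904 CPM.

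**Figure D3:**
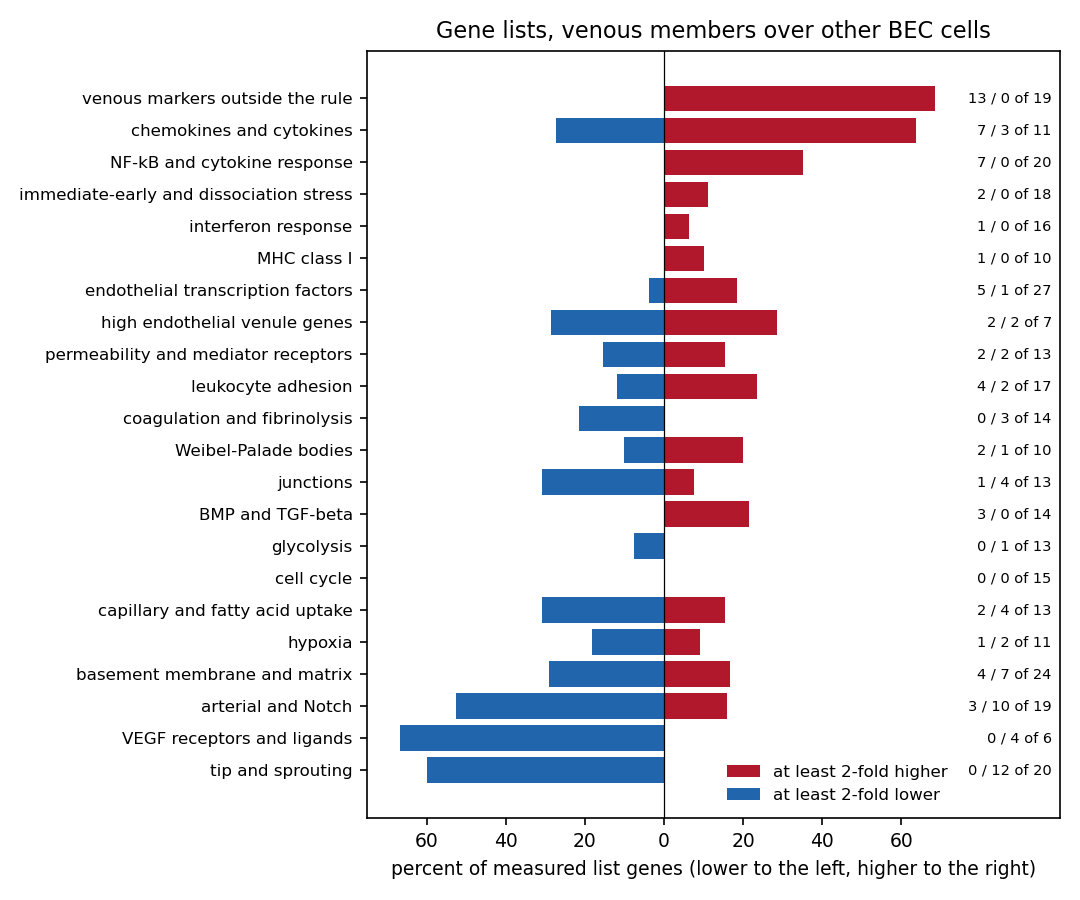
Percent of the measured genes of each list (y axis) that were at least 2-fold higher (red, to the right) or lower (blue, to the left) in the venous members than in the other BEC, with the counts higher / lower of measured at the right edge. The venous list had 13 of 19 genes higher and 0 lower, the tip and sprouting list 0 higher and 12 of 20 lower. The rule placed tip and arterial cells among the other BEC, which bears on the counts of those lists. Over all 7805 genes at 10 CPM or more, 5.33% were higher and 4.29% lower.

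Genes of growing vessels were lower in the members. Of 20 tip and sprouting genes 0 were at least 2-fold higher and 12 lower, with a median log2 ratio of -1.42. The rule placed cells that scored highest on the tip set, 388 cells, among the other BEC. This count thus partly describes the rule and is not independent of it. Esm1, a proteoglycan of tip cells, was at 236 CPM in the members and 1712 CPM in the other BEC, 7.24-fold lower (6.86 to 7.65). Unc5b was 7.25-fold lower (5.54 to 9.70) and Pgf, placental growth factor, 9.59-fold lower (6.88 to 13.8). Of the VEGF receptor genes, Flt1 was 2.04-fold lower (1.97 to 2.11), Flt4 2.94-fold lower (2.41 to 3.63) and Kdr, the main signalling receptor, 1.77-fold lower (1.67 to 1.87). Flt1 came under 2-fold in 5 of the 20 alternative settings. When Ackr1 was left out of the score, log2 ratios went from -2.85 to -2.06 for Esm1 and from -2.94 to -2.13 for the arterial gene Hey1, described next.

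Arterial and Notch genes were lower for 10 of 19 and higher for 3, with a median log2 ratio of -1.02. The other BEC likewise include the 268 arterial cells picked by the rule, so this count too partly describes that choice. The gap junction gene Gja4 was at 27.2 and 248 CPM, 9.13-fold lower (7.79 to 10.8). The Notch target gene Hey1 was at 19.0 and 153 CPM, 8.05-fold lower (6.66 to 9.82), and the Notch ligand gene Dll4 at 46.0 and 266 CPM, 5.77-fold lower. The 3 that were higher were Fbln5, Mgp and Edn1, of which Mgp went from a log2 ratio of 1.71 to 0.20 without the 33 members rich in Htr2b.

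Other genes among the 12 lowest ratios were Igfbp3, Kcne3, Cldn5, Kcnj8, Chga, Ptp4a3 and Nes. Igfbp3, an IGF binding protein, was at 741 and 6196 CPM, 8.37-fold lower (8.12 to 8.63), and its log2 ratio went from -3.06 to -2.09 when Ackr1 was left out of the score. The tight junction gene Cldn5 was at 76.9 and 521 CPM, 6.78-fold lower (6.17 to 7.47), and was detected in 42.8% of members and 75% of the other BEC.

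Genes of lipid handling by capillaries diverged from one another. Gpihbp1, which carries lipoprotein lipase to the lumen of capillaries, was at 727 and 4142 CPM, 5.70-fold lower (5.53 to 5.88), with a log2 ratio of -2.51 that became -1.65 when Ackr1 was left out. The fatty acid binding protein gene Fabp4 was at 11120 and 4788 CPM, 2.32-fold higher (2.30 to 2.34). Its median in single cells was 91.4 UMIs per 10000 in members and 25.1 in the other BEC. Rgcc and Btnl9 were 4.03-fold and 5.61-fold lower.

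In the matrix list 7 of 24 genes were at least 2-fold lower, and 4 higher, with a median log2 ratio of -0.72. Genes of the capillary basement membrane made up most of the lower side: the laminin chains Lama4, Lamb1 and Lamc1, and Nid2 at 17.7 and 107 CPM. Sparc, at 6926 and 14676 CPM, Sparcl1 and fibronectin (Fn1) were also lower. The higher genes were Bgn, Eln, Mgp and versican (Vcan), at 33.5 and 0.954 CPM.

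Of 27 measured endothelial transcription factors 5 were at least 2-fold higher (Nr2f2, Foxc1, Foxc2, Foxp1 and Meox2) and 1 lower (Bcl6b). Foxp1 was at 259 and 111 CPM and Meox2 at 264 and 109 CPM. Bmp4, a ligand of the BMP family, was at 111 and 14 CPM, 7.95-fold higher (7.17 to 8.81). None of 15 cell cycle genes differed 2-fold, with a median log2 ratio of -0.62. After thinning, 16.8% of members (12.7 to 21.7%) and 20.2% of the other BEC (18.7 to 21.7%) carried 2 or more UMIs of 10 cell cycle genes. These intervals count cells of 1 pooled sample and do not test a difference. Without thinning, the 10 genes summed to 311 CPM in the members and 499 CPM in the other BEC.

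Markers of other cell types were checked beside these results. Pan-endothelial markers summed to 10306 CPM in the members and 11272 CPM in the other BEC. Lymphatic markers summed to 58.6 and 204 CPM, fibroblast markers to 9.83 and 8.29 CPM, melanocytic markers to 27.6 and 31.2 CPM, and macrophage markers to 7.2 and 4.92 CPM. Platelet markers, which share Selp and Vwf with venous cells, summed to 66.5 and 58.1 CPM, of which Itga2b gave 42 and 18 CPM. Itgb3, also on that list, was lower in the members, at 11.8 and 33.6 CPM. The platelet chemokine genes Pf4 and Ppbp were at 3.34 and 3.16 CPM in the members and at 3.14 and 1.05 CPM in the other BEC, and 1 cell held 94.4% of the members' Ppbp UMIs. The platelet genes Gp1ba, Gp5, Gp6 and Tubb1 had no UMI in the members.

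Mural markers summed to 590 CPM in the members and 447 CPM in the other BEC. Tagln, a smooth muscle actin-binding protein, was at 367 and 26.2 CPM and was seen in 142 of 285 members. The 13 other mural genes counted without Mcam, which endothelium also expresses, summed to 134 CPM in the members and 243 CPM in the other BEC. Of these 13, Kcnj8 was at 11.8 and 107 CPM and Abcc9 at 11.1 and 47.8 CPM. Some contractile genes went the other way, with Acta2 at 36.5 and 26.7 CPM, Myl9 at 14.2 and 8.44 CPM and Mylk at 53.5 and 39.1 CPM. At low levels, Cnn1 was also higher, at 0.702 and 0.0625 CPM. Actg2 was lower, at 0.351 and 1.44 CPM, as were Des, at 0.878 and 2.20 CPM, and Myh11, at 0 and 0.360 CPM. The sum is thus not lower for each gene. Pdgfrb, Myh11 and Cspg4 were at 0 in the members. In cells with fewer than 5 UMIs of those 13 genes (242 members), Tagln was at 325 and 26.6 CPM, 12.2-fold higher (11.2 to 13.2). When Tagln was counted among the mural genes of that limit, its log2 ratio went from 3.76 to 2.22, and that of Kcnj8, also on the mural list and 1 of the 12 lowest genes, from -3.08 to -1.34.

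The other BEC are a mixture, so the same genes were read in each of its groups. All 20 highest genes were at a higher level in the members than in each of the arterial, tip, Npr3 and Aplnr groups and the group with no program, which was so for 28.4% of the 3339 genes. They had been chosen for their ratio to the sum of these groups, so the count describes that choice. The distance to the next group ranged from 1.32-fold for Fbln5 to 21.5-fold for Sele. For 14 of the 20 the next group was the arterial one.

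The elastic fibre genes were shared most with arterial cells. Fbln5 was at 721 CPM in the members, 546 CPM in arterial cells and 29.3 to 54.0 CPM in the other groups. Eln was at 318 CPM in the members, 200.4 CPM in arterial cells and 2.01 to 7.33 CPM elsewhere. Ctsh, a lysosomal protease, was at 222 CPM in the members and 101 CPM in arterial cells.

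Il6st and Sele had no such second group. Il6st was at 464 CPM in the members and between 28.5 and 45.2 CPM in each of the others. Sele was at 71.4 CPM in the members and at most 3.32 CPM elsewhere. Lrg1 was graded, at 6532 CPM in the members, 1350 CPM in arterial, 1303 CPM in Aplnr, 671 CPM in Npr3 and 387 CPM in tip cells. Ptgs1 was shared in part with Aplnr cells, at 224 and 102 CPM. Aplnr itself, a gene of the rule, was at 636 CPM in the members and 698 CPM in the Aplnr cells.

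On the lower side, 9 of the 12 genes were at a lower level in the members than in each other group, which was so for 32.9% of the 3339 genes, and these too were chosen on the same groups. Igfbp3 was at 741 CPM in the members and 4591 to 11016 CPM in the others. Gja4, at 27.2 CPM in the members, was at 24.2 CPM in tip cells and 1228 CPM in arterial cells.

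Several of the genes were also found in the LEC sort, which was summed here as a whole, without a gate for lymphatic cells. Htr2b was at 134 CPM in the LEC sort against 72.7 CPM in the members, and Nr2f2 at 154 against 136 CPM. Sele, at 0.557 CPM, and Ackr1, at 5.58 CPM, were low there.

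**Figure D4:**
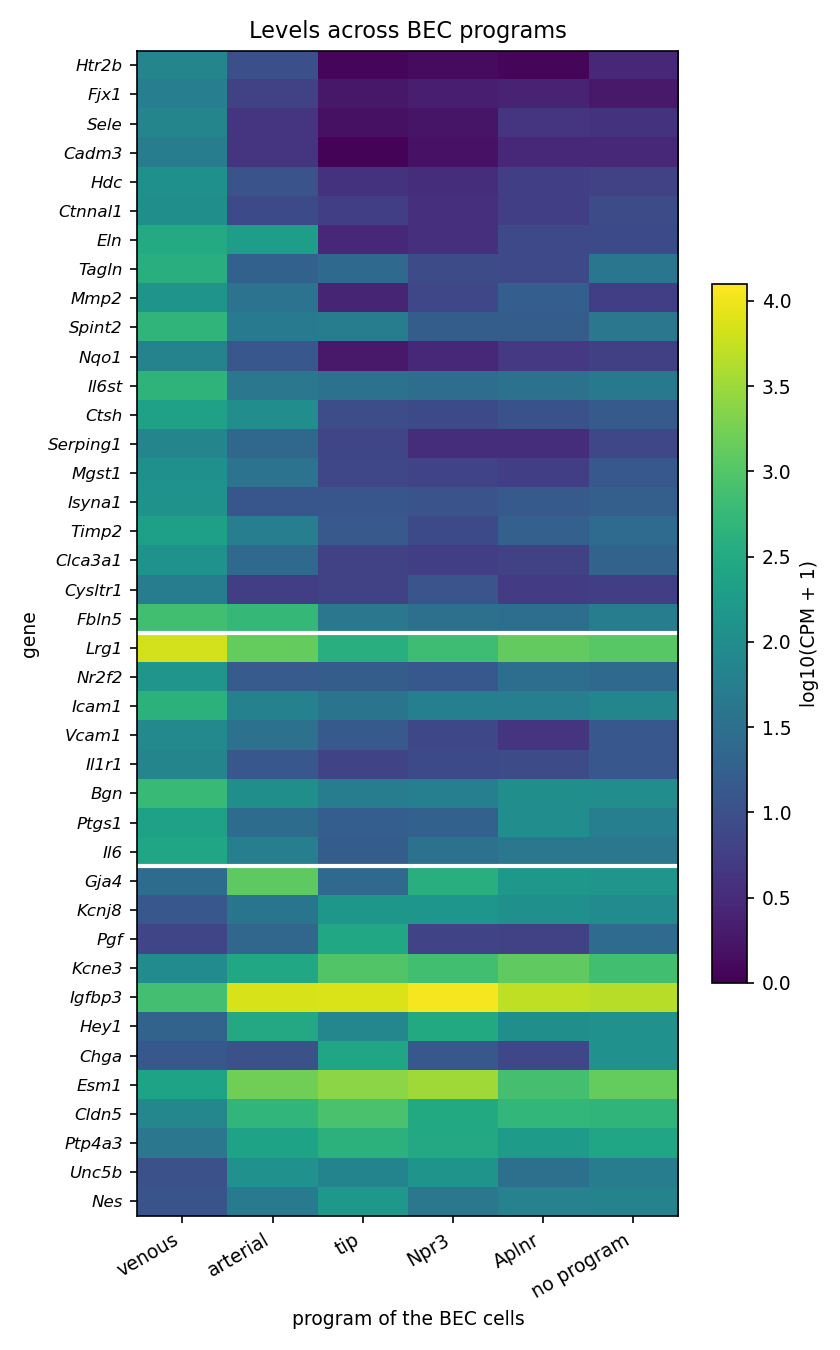
Levels as log10(CPM + 1) (colour) of the 20 highest genes, 8 further venous or cytokine genes and the 12 lowest genes (rows, in blocks split by white lines) in the members and the 5 other groups of BEC (columns). Eln and Fbln5 are also high in arterial cells, whereas Sele and Il6st are high in the members alone among these 6 groups.

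The members were not uniform. Clustered among themselves without the 14 scoring genes, they fell into 5 sub-clusters of 81, 77, 69, 33 and 25 cells. The genes that define a sub-cluster were used to draw it, so the values that follow are descriptions. The division among sub-clusters 1 to 3 depended on the clustering settings, with a best overlap (shared cells over cells in either set) down to 0.333, 0.429 and 0.310 under other seeds, resolutions or gene numbers. Sub-cluster 4 kept an overlap of at least 0.524 and sub-cluster 5 of at least 0.857.

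Sub-cluster 4, of 33 cells, had the highest levels of the elastic fibre genes. Eln was at 1505 CPM in it and 32.3 to 409 CPM in the other sub-clusters, and Fbln5 at 2452 CPM against 142 to 587 CPM. Ctsh was at 1221 CPM and detected in 100% of its cells, against 59.0 to 196 CPM elsewhere. Htr2b was at 401 CPM and detected in 75.8% of its cells, against 6.49 to 18.8% of the cells of the others. Without these 33 cells the log2 ratio to the other BEC went from 3.49 to 2.23 for Ctsh, from 3.73 to 2.97 for Mmp2 and from 2.33 to 1.16 for Ptger4.

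Sub-cluster 4 was led by Serpinb9, an inhibitor of granzyme B, at 610 CPM against 96.4 CPM in the other members, and by Klk8, Bgn, Fbln2 and Fstl1. Nr2f2 was at 293 CPM and Ackr1 at 2109 CPM in it, while the arterial scoring gene Stmn2 was at 380 CPM against 2.48 to 66.9 CPM. Of its 33 cells 12 had an arterial z-score over 1, compared with 10 of the 252 other members. Its 13 mural genes other than Tagln and Mcam summed to 357 CPM, the highest of the 5, and their part in its elastic fibre genes was not tested.

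Sub-cluster 3, of 69 cells, had the highest Ackr1, at 2434 CPM, and the highest Lrg1, at 8641 CPM. It was led by Fmo1, Igf1 and Ccnd2, with the growth factor gene Igf1 at 131 CPM against 20.7 CPM in the other members. Il6 was at 418 CPM and Fabp4 at 17509 CPM. Hdc was high in sub-clusters 3 and 4, at 218 and 335 CPM, and at 22.4 to 45.5 CPM in the others.

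Sub-cluster 1, of 81 cells, held the highest Tagln and Il6st, at 817 and 699.5 CPM, and Apoe was at 2206 CPM against 941 CPM in the other members. Sub-cluster 2, of 77 cells, had Tagln at 61.6 CPM, and Rnase4, among its leading genes, was at 81.6 CPM against 19.2 CPM in the other members. This sub-cluster had the largest share of cycling cells, 28.6%, and the largest median depth, 23097 UMIs, against 8.0 to 18.2% and 11851 to 19511 UMIs in the others.

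Sub-cluster 5, of 25 cells, had high Igfbp3, Gpihbp1 and Esm1, which were low in the members as a whole. Igfbp3 was at 5750 CPM in it and at 305 to 407 CPM in the other sub-clusters. Gpihbp1 was at 3587 CPM against 343 to 650 CPM, and Esm1 at 1602 CPM against 129 to 142 CPM. Fabp4 was lowest in it, at 2740 CPM against 6520 to 17509 CPM. Ackr1 was at 251 CPM and detected in 56.0% of its cells, Lrg1 was at 2183 CPM and Nr2f2 at 24.8 CPM. Its cells were the shallowest, with a median of 11851 UMIs, had the highest median mitochondrial share, 6.16%, and a median venous z-score of 1.38. Platelet markers summed to 224 CPM in it against 35.1 to 75.6 CPM in the other sub-clusters, and macrophage markers to 27.3 against 1.95 to 13.7 CPM. The 13 mural genes summed to 241 CPM, against 80.0 to 105 CPM in sub-clusters 1 to 3. The part of depth, mitochondrial share and these markers in its levels was not tested. Without these 25 cells, 186 genes were at least 2-fold higher in the members and 176 lower, and the log2 ratio to the other BEC was -4.10 for Igfbp3 and -3.68 for Esm1.

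**Figure D5:**
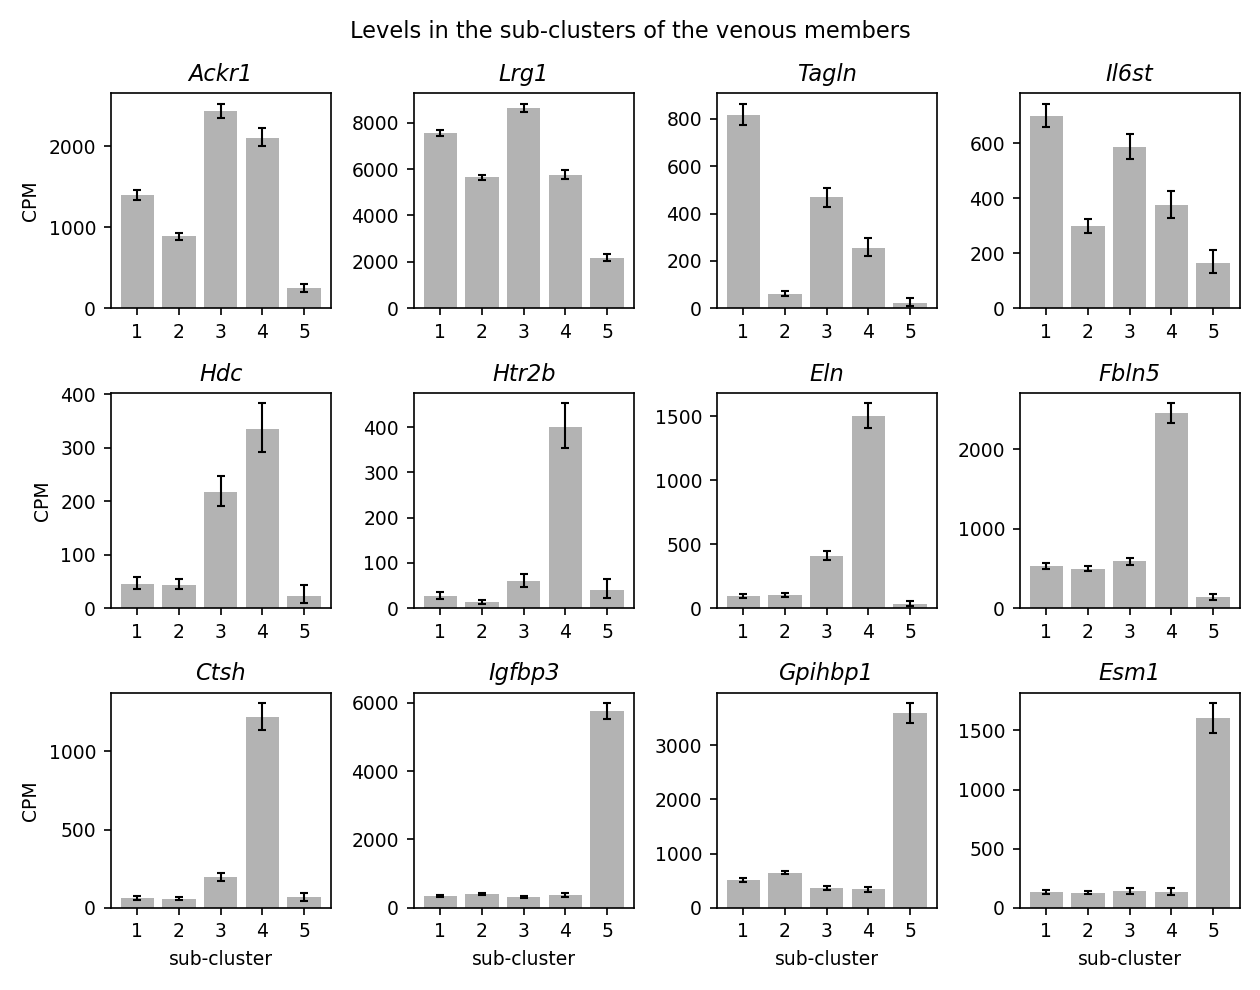
Levels in CPM (y axes, linear from 0, one scale per gene) of 12 genes in the 5 sub-clusters of the venous members (x axes), with exact Poisson 95% intervals that cover counting error only. Eln, Fbln5, Ctsh and Htr2b peak in sub-cluster 4, and Igfbp3, Gpihbp1 and Esm1 in sub-cluster 5.

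The LEC sort, which the rule did not use, was first filtered by the same pigment and stromal limits as the BEC sort. Cells also needed a sum of 5 or more UMIs of Flt1, Esm1 and Nrp1. Their sum over Lyve1, Pdpn, Mmrn1 and Reln had to be under 5, which left 72 cells. By the same scores 4 of them were venous, 5.56% (1.53 to 13.6%), and 0 of the 72 had a barcode of the BEC sort. As a description of so few cells, their 85641 UMIs were set against those of the other 68. The lymphatic chemokine gene Ccl21a was still found in 4 of the 4 cells and 67 of the 68, at 490 and 646 CPM. Ackr1, a gene of the rule, had 303 UMIs in the 4 cells and 0 in the 68. Of the 20 highest genes 18 were higher in the 4 cells, as were 44% of the 3339 genes, and 17 had an interval above 1, as did 16.8%. The intervals count UMIs and not cells. Among the 17, Htr2b (12 UMIs), Cysltr1 (3 UMIs), Fjx1 (2 UMIs) and Cadm3 (2 UMIs) were each found in 1 of the 4 cells. Il6st and Ctsh were each found in 2. Sele and Hdc had no UMI in the 4 cells, where 0 UMIs of Sele against 2 in the 68 allows no comparison. All 12 lowest genes were lower, as were 55.9% of the 3339 genes, and 11 had an interval below 1, as did 20.1%. Esm1, 1 of the 12, was also used to choose the 72 cells, and without it 11 of 11 were lower and 10 had an interval below 1.

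In these 4 cells Lrg1 was at 10182 CPM against 893 CPM in the 68, 11.4-fold higher (10.4 to 12.5). Vcam1 was at 362 and 3.12 CPM and Icam1 at 479 and 32.7 CPM. Il6 was at 455 and 42.1 CPM, 10.8-fold higher (6.98 to 16.6). Igfbp3 was at 46.7 and 6367 CPM.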

How the data were processed

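Per the labels' protocols, libraries were prepared by the Chromium 3′ method of 10x Genomics, version v2 of the kit. Build mm10 and the tool Cell Ranger 2.1.1 are named in the submitters' processing notes. The deposited values are raw UMI counts for 28692 gene symbols and 7635 cells. How the authors filtered cells was not stated in the sources used. The column names give the sort of a cell and no library, so the 4 libraries of a sort were treated as 1 sample and no test was run.

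Cells were scored on the mean of ln(1 + UMIs per 10000) of each set. Counts were summed over members and over other scored cells and expressed as CPM, with exact Poisson, Clopper-Pearson and conditional binomial intervals. Log2 ratios used a pseudocount of 1 CPM, whereas printed folds are plain ratios of CPM. Counts of genes used those at 50 CPM or more in the higher sum and lists those at 10 CPM or more, without the 14 scoring genes and mitochondrial genes. Cycling cells were counted after thinning each cell to 6000 UMIs; no BEC cell was shallower and 265 LEC cells were left out.

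Members were clustered on 1000 variable genes, 15 principal components, 15 neighbours and Leiden resolution 0.6 with scanpy 1.11.5 and python-igraph 0.11.9. Other steps ran in Python 3.11.15 with scipy 1.17.1, numpy 2.4.6 and pandas 2.3.3, and matplotlib 3.10.9 drew the plots. No doublet caller was run. In the LEC sort, cells had to pass the same pigment and stromal limits. Those with fewer than 5 UMIs of 4 lymphatic genes and 5 or more of Flt1, Esm1 and Nrp1 were then scored. The scores used the means and SDs of the BEC cells. Gene positions are from GENCODE M21. Of 41 genes looked up, 28 had an upstream window in RefSeq.

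The rule for named genes took the 20 highest and 12 lowest log2 ratios at 50 CPM or more with a UMI in at least 10% of the cells of the higher group and no cell holding over 10% of the UMIs there, leaving out ribosomal, haemoglobin and unnamed model genes. It also took the 4 members of each list with the highest CPM, all members of 3 lists and 10 leading genes per sub-cluster. Other list genes are named because of their values. The members, lists and rules were chosen with earlier results of these data known. The ratio and interval steps were run on simulated Poisson counts of summed groups. That is the error the intervals assume, so the simulation does not cover spread between cells.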

Additional observations from a re-analysis of the deposited data

How the results depend on the processing

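No paired analysis was possible because the matrix columns carry no library number and no test was made. Of 142 genes named with a level or ratio, 100 were at least 2-fold apart in the main setting. They were read again under 20 alternatives (other thresholds, gates, scores, cells, references, scalings and minimum levels). Of the 100, 2 changed direction and 19 came under 2-fold under at least 1 alternative, and 46 moved by over 1.5 times, most often (20 genes) when Selp was left out of the score. Ccl2 went to a log2 ratio of -0.35 with scoring on thinned cells and -0.0060 without sub-cluster 5. Ppbp, mostly from 1 cell, went to -1.21 at a threshold of 1.5, -1.21 without Selp, -0.99 without Vwf, -1.22 on thinned cells, -1.13 without cycling cells and -0.78 without sub-cluster 5. The other 17 that came under 2-fold were Egr1 (10 alternatives), Flt1 (5), Lamb1 and Sparc (4 each), Enpp2 and Plaur (3 each), Cxcr4, Edn1, Lamc1 and Podxl (2 each), and Bcl6b, Ccl21a, Cxcl9, Flt4, Itga2b, Jam2 and Mgp (1 each). Madcam1 ranged from 1.11 to 5.06 and Csf3 from 2.77 to 5.79. The causes were not tested.

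The share of venous members was 10.9% at a z-score threshold of 0.5, 7.41% at 1.5 and 10.9% without Ackr1 in the score. With a minimum of 10 CPM, 416 genes were at least 2-fold higher and 335 lower, and with a minimum of 1 UMI 753 and 642. Median-of-ratios scaling shifted log2 ratios by -0.05 and gave 166 higher and 170 lower. Without cells holding 5 or more UMIs of mural genes other than Mcam, here with Tagln counted, 157 members remained, with 156 genes higher, 141 of them shared with the 172, and 143 lower.

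Leaving out sub-cluster 4 or sub-cluster 5 was chosen after seeing the data and gave 167 and 186 higher genes. A count of 3 UMIs corresponded to 0.527 CPM in the members. Libraries and mice could not be left out in turn, because the columns do not separate them.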
